A study of Mus musculus with 4 samples.

Results

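The genes described are 56 widely expressed genes of mouse chromosome 6, chosen by name from a list of 57 on the log2 ratio of each 129 library to the B6 mean and on the ratio between the 129 libraries. They are 56 of the 1792 chromosome 6 genes and of the 32285 genes in the counts table. The list's other gene, Cdk6, a cell cycle kinase, has a row but is annotated on chromosome 5 (chr5:3341485-3531008), so it does not meet the rule and is given apart. Because the choice rested on these ratios, they are given as a description, with no test. Of the 56 members, 53 had a mean of at least 10 counts per 1000000 counts (CPM) over the 4 libraries, and Mrps33, Jazf1 and Bcat1 lay under it.

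The libraries are stranded mRNA sequencing of GS (germline stem) cells, cultured spermatogonia derived from the testes of wild-type mice 10 days of age. There were 2 libraries of strain C57BL/6 (B6), whose titles also carry the unexplained label F0, and 2 of strain 129. No treatment is given, and no label tells if replicates are different cultures or mice, and any p-value measures only the spread between these libraries, which may be technical. The totals were 20375086 to 25374801 counts, and the members took 0.952% and 0.991% of them in B6 and 1.08% and 1.31% in 129.

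The germ cell genes Ddx4 (276 to 517 CPM), Dazl (635 to 1052 CPM) and Zbtb16 (247 to 452 CPM) were present in all 4 libraries. Markers of other cells were present too. The 20 fibroblast markers summed to 8067 and 5518 CPM in B6 and to 10484.5 and 4038 CPM in 129 replicates 1 and 2, none was at 0 in every library, and 19 of the 20 were higher in 129 replicate 1 than in 129 replicate 2. Over the same libraries, 15 of 16 spermatogonial markers were lower in 129 replicate 1, with a median log2 ratio of -0.44. The 8 endothelial markers summed to 14.98 and 20.7 CPM in B6 and to 197 and 76.2 CPM in 129, higher in both 129 libraries. EdgeR called 2 of the 5 endothelial markers tested higher in 129, where 1.84% of all genes tested were. It also called higher 2 of 11 Sertoli cell, 1 of 20 fibroblast, 1 of 6 peritubular muscle cell and 2 of 16 spermatogonial markers tested. Of the spermatogonial markers, 2 were called lower (1.02% of all genes). The 12 Sertoli cell markers summed to 585 to 697 CPM, and the Leydig cell, peritubular muscle cell and macrophage lists to 19.4 to 93.2 CPM, in every library. The part of these differences in the results on the members was not tested. In bulk libraries, fewer cells of a type and less RNA per cell cannot be told apart.

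Most of the members are housekeeping genes that encode parts of the machinery every cell uses: splicing factors, mitochondrial enzymes, chromatin remodelers, chaperones and transport proteins. The mRNA level of such genes tends to follow the number of gene copies, and cultured stem cells can gain or lose whole chromosomes in some or all of their cells. In a mixed culture the average level then moves by less than it would if every cell had the change. As a scale, if counts followed copies, 3 copies in place of 2 in 25%, 50%, 75% or 100% of the cells would give log2 ratios of 0.17, 0.32, 0.46 or 0.58. Copy number itself was not tested.

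Among the members, 3 pairs of neighbours start head to head. In the GENCODE annotation, Tada3 and Arpc4 start 232 bases apart, Emg1 and Phb2 158 bases apart, and Ncapd2 and Mrpl51 100 bases apart, on opposite strands. A 300-base window of 1 gene is shown for each pair because these neighbours are compared further on. The sequences are RefSeq windows of build GRCm38.p6, from 250 bases before to 50 after the named gene's RefSeq start, and capitals mark matches to CCGGAAGT, the core recognised by ETS factors (the family of the member Etv6), on either strand.
Arpc4, chr6:113377863-113378162, plus strand: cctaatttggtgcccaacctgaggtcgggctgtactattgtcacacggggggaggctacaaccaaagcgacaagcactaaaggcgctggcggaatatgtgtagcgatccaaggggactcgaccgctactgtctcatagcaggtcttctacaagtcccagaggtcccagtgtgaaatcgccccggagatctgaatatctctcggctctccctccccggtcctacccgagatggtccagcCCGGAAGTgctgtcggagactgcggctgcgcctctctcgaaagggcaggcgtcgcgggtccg
Phb2, chr6:124712039-124712338, plus strand: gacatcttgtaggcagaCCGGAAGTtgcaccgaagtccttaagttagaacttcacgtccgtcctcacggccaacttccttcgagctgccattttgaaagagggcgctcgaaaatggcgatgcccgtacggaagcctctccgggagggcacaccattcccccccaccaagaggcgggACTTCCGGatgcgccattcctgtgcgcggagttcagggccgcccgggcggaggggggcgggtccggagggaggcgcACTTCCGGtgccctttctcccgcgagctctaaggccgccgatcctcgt
Ncapd2, chr6:125191537-125191836, minus strand: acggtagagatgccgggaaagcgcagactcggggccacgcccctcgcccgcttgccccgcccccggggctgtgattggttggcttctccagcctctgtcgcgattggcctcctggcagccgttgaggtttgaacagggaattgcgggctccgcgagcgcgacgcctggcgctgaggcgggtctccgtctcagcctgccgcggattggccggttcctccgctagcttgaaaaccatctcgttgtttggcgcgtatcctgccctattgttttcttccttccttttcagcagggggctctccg
The Arpc4 window holds 1 match and the Phb2 window 3, while the Ncapd2 window holds none. The RefSeq window of its neighbour Mrpl51 (chr6:125191950-125192249) does not overlap that of Ncapd2, and it does hold a match. Promoter windows were found for 52 of the 56 members (68 windows), all but Atn1, Usp5, Htra2 and Sec61a1. CCGGAAGT lay in those of 10 members (19.2%), against 4.31% of the 27025 genes with a window. Those 27025 genes were not limited to expressed ones, whereas the members are widely expressed. The windows of Emg1 and Phb2 overlap and share matches, which are counted for both. TATAAA, the core of the TATA box, lay in 6 of 52 (11.5%) and in 15.7% of all genes. The members' windows held a median of 21.5 CG dinucleotides, against 7 over all 32851 windows. These are matches of letters, not measured binding sites.

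As a group, the members stood highest in 129 replicate 2. Their median log2 ratio to the B6 mean was 0.32 in 129 replicate 2 (range -0.42 to 1.29) and 0.08 in 129 replicate 1 (range -0.59 to 1.67), and the SD of these medians over the 2 libraries was 0.17. In 129 replicate 2, 48 of 56 members lay above the B6 mean, where 46.7% of all genes of at least 10 CPM did. In 129 replicate 1, 32 of 56 did, against 47.7%. Since the rule used these ratios, nothing is read from the counts. Mitochondrial genes took 3.09% of the counts in 129 replicate 2 and 2.31% to 2.54% in the other 3 libraries, and the part of this in the members' ratios was not tested.

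**Figure D1:**
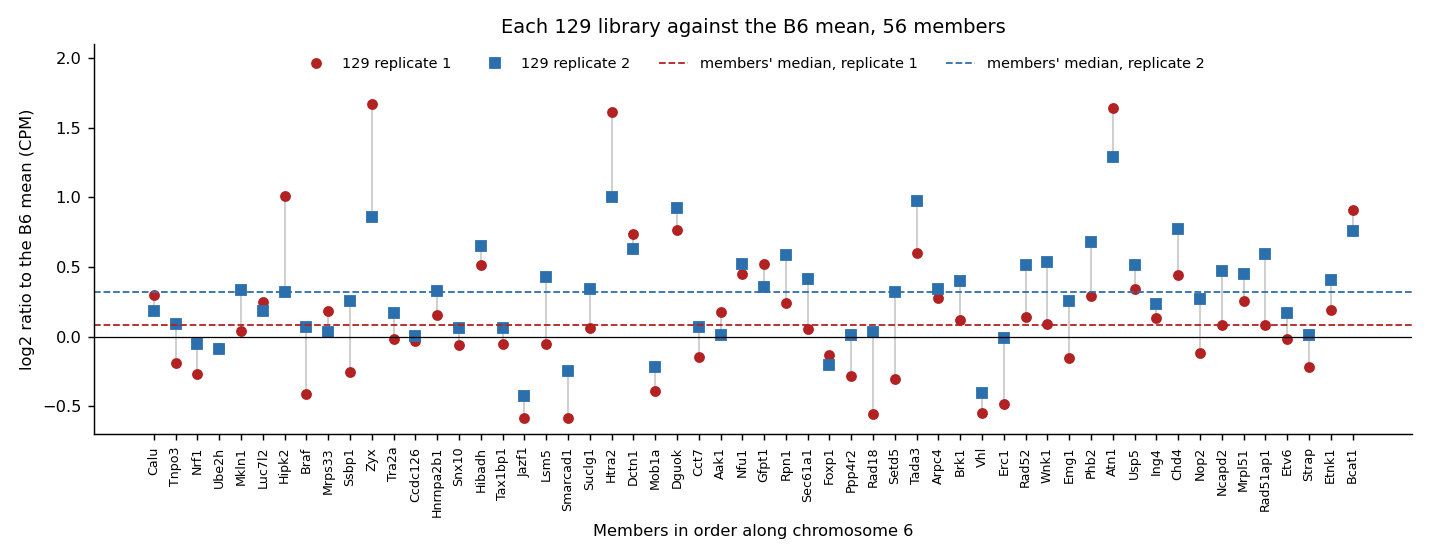
Log2 ratio of each 129 library to the B6 mean in CPM (y axis) for the 56 members in their order along chromosome 6 (x axis). Circles are 129 replicate 1, squares 129 replicate 2, grey lines join the values of a gene, and dashed lines are the medians of 0.08 and 0.32. Squares lie above circles for 43 of 56 members, and Zyx, Htra2 and Hipk2 are the clearest of the exceptions.

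Between the 129 libraries, 43 of 56 members were lower in replicate 1 than in replicate 2, where 53.5% of all genes of at least 10 CPM were. On the log2 scale the median of replicate 1 over replicate 2 was -0.19, with the central 50% of members from -0.36 to -0.06. Between the B6 libraries the members showed no such shift: 29 of 56 were lower in replicate 1, where 52.1% of all genes were, and the median log2 ratio was -0.018, or 0.0056 with DESeq2 size factors. The B6 ratios were more widely spread, with the central 50% of members from -0.26 to 0.26.

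The other 441 genes of chromosome 6 with at least 10 CPM, which were not on the list, lay near the members. Their median log2 ratio to the B6 mean was 0.15 in 129 replicate 1 and 0.29 in 129 replicate 2, and it was -0.20 between the 129 libraries and -0.035 between the B6 libraries. Over the 9413 genes of the other autosomes the same medians were -0.049, -0.056, -0.026 and -0.024. Set against those autosomes, the members' median was 0.13 higher in 129 replicate 1 and 0.37 higher in 129 replicate 2, a 1.10-fold and a 1.30-fold level. These are medians over genes, which are not independent replicates.

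**Figure D2:**
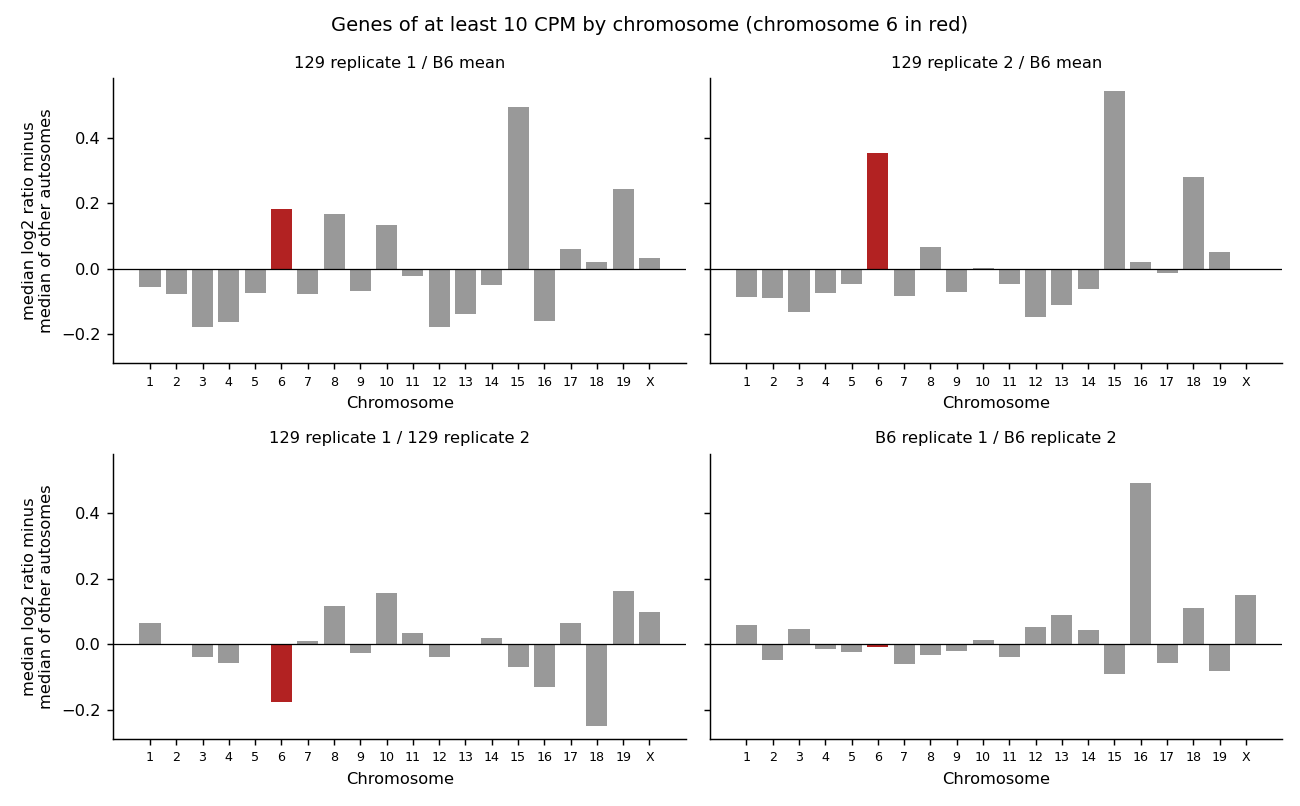
Median log2 ratio of the genes with at least 10 CPM on each chromosome minus the median of the other autosomes (y axis), by chromosome (x axis), for each 129 library to the B6 mean, between the 129 libraries and between the B6 libraries. Chromosome 6 is red and stands at 0.18, 0.35, -0.18 and -0.0089 in the 4 panels.

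Chromosome 6 was not alone in this. Relative to the other autosomes, all 494 genes of chromosome 6 with at least 10 CPM had a median of 0.18 in 129 replicate 1 and 0.35 in 129 replicate 2. On chromosome 15 the same values were 0.49 and 0.54, so that it stood higher than chromosome 6 in both libraries and differed less between them. On chromosome 18 they were 0.020 and 0.28, and its ratio between the 129 libraries (-0.25) was the only one of the 20 chromosomes plotted below that of chromosome 6 (-0.18). In 129 replicate 1, chromosome 19 (0.24) also stood above chromosome 6, with chromosome 8 (0.17) close to it. On chromosome 16 it was the B6 libraries that lay apart, with a median of 0.49 between them, where chromosome 6 had -0.0089.

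**Figure D3:**
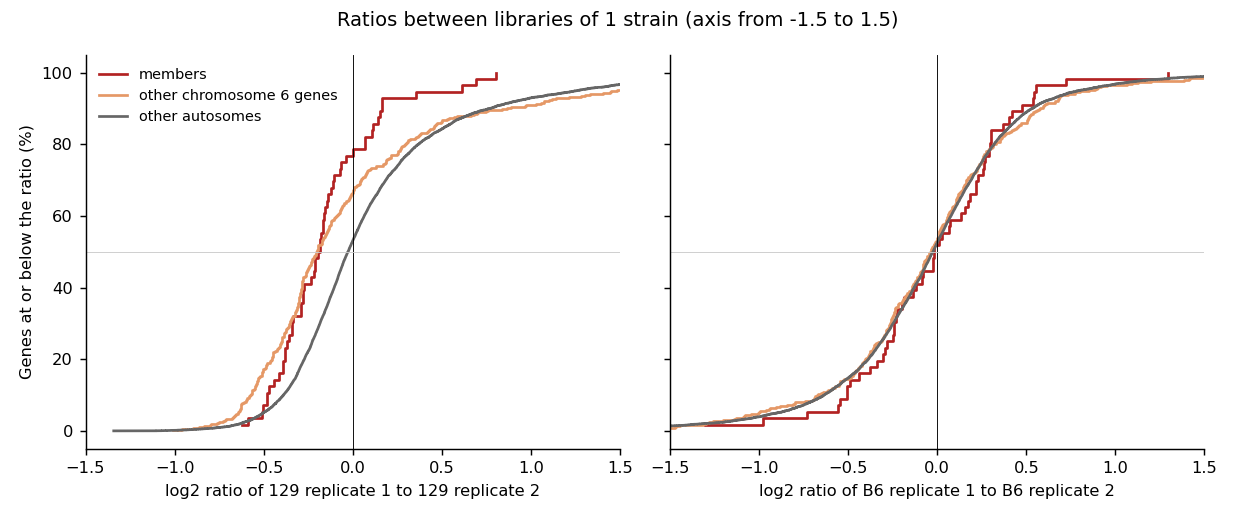
Share of genes in percent (y axis) at or below each log2 ratio (x axis) of 129 replicate 1 to 129 replicate 2 (left) and of B6 replicate 1 to B6 replicate 2 (right), for the 56 members, the 441 other chromosome 6 genes and the 9413 genes of other autosomes. On the left both chromosome 6 curves cross 50% at lower ratios (-0.19 and -0.20) than the other autosomes (-0.026), and on the right the 3 curves lie close together.

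The shift between the 129 libraries ran along the chromosome. In 5 stretches of equal length from the chromosome's start, the members' median log2 ratio between the 129 libraries was -0.079 (2 members), -0.14 (17), -0.16 (12), -0.29 (9) and -0.28 (16). The other chromosome 6 genes had medians of -0.18, -0.14, -0.18, -0.27 and -0.23 in the same stretches, so that all 10 medians were below 0. The ratio of 129 replicate 2 to the B6 mean was less even among the members, at 0.13, 0.17, 0.38, 0.032 and 0.49, while the other genes stayed between 0.27 and 0.34. The fourth stretch held the members' lowest medians against B6, also in 129 replicate 1 (-0.28). Its 9 members were mixed: Foxp1, Vhl and Erc1 were below the B6 mean in both 129 libraries, Tada3, Arpc4 and Brk1 above it in both, and Rad18, Ppp4r2 and Setd5 below it in replicate 1 and above it in replicate 2.

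Abundance, transcript length and base composition moved with these values. Among autosomal genes elsewhere, those with at least 111.9 CPM, the members' median level, had a median of -0.23 in 129 replicate 1, -0.16 in 129 replicate 2 and -0.11 between the 129 libraries. Against those genes the 28 members at or above that level stood 0.32 and 0.48 higher in 129 replicates 1 and 2, and 0.11 lower between the 129 libraries. Against autosomal genes below that level, the 28 members below it stood 0.029 and 0.30 higher, and 0.17 lower between the libraries. The 28 members with the more GC-rich longest transcripts (at least 45.9% GC) stood 0.50 above other autosomal genes of that kind in 129 replicate 2, and the 28 others 0.29 above theirs. By exon length (5889.5 bases) the same values were 0.33 for the 28 longer and 0.39 for the 28 shorter members. The other chromosome 6 genes did not show these differences. In 129 replicate 2 the more GC-rich stood 0.34 higher and the rest 0.37, and the longer stood 0.38 higher and the shorter 0.35. By abundance, those at or above 111.9 CPM stood 0.13 and 0.37 higher in 129 replicates 1 and 2, and those below it 0.18 and 0.35. The part of these properties in the results was not tested.

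In the comparison of the strains, fitted over 16005 genes, 1 of the 56 members, Atn1, was called by edgeR's quasi-likelihood test, where 2.86% of all genes tested were (1.84% higher and 1.02% lower in 129). The members' median log2 fold change of 129 over B6 was 0.21, against 0.015 over all genes tested and 0.23 over the other chromosome 6 genes. Of the 56, 41 were above 0. The share of all genes tested above 0 is not given here, and the members were chosen on the ratios, so nothing is read from this count. At an unadjusted p under 0.05, 9 members passed, where 28.1% of all genes passed in either direction. These 9 were all higher in 129, but the share of all genes passing in that direction is not given here. Nothing is read from the direction, since the rule used the ratios. DESeq2 called 3 members (15.3% of all genes), Atn1, Zyx and Htra2, and limma-voom called 1 (1.64%). Without B6 replicate 1, B6 replicate 2 or 129 replicate 1, edgeR called 0 members, with 5, 11 and 7 of 56 at an unadjusted p under 0.05, where 19.5%, 24.4% and 13.2% of all genes tested passed. Without 129 replicate 2 it called 2 members and 4.92% of all genes. The members' median was 0.18 and 0.11 without B6 replicates 1 and 2, 0.33 without 129 replicate 1 and 0.086 without 129 replicate 2. Both 129 libraries lay above both B6 libraries for 22 of 56 members, where this held for 28.4% of all genes of at least 10 CPM, and below both for 4, where it held for 31.9%.

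**Figure D4:**
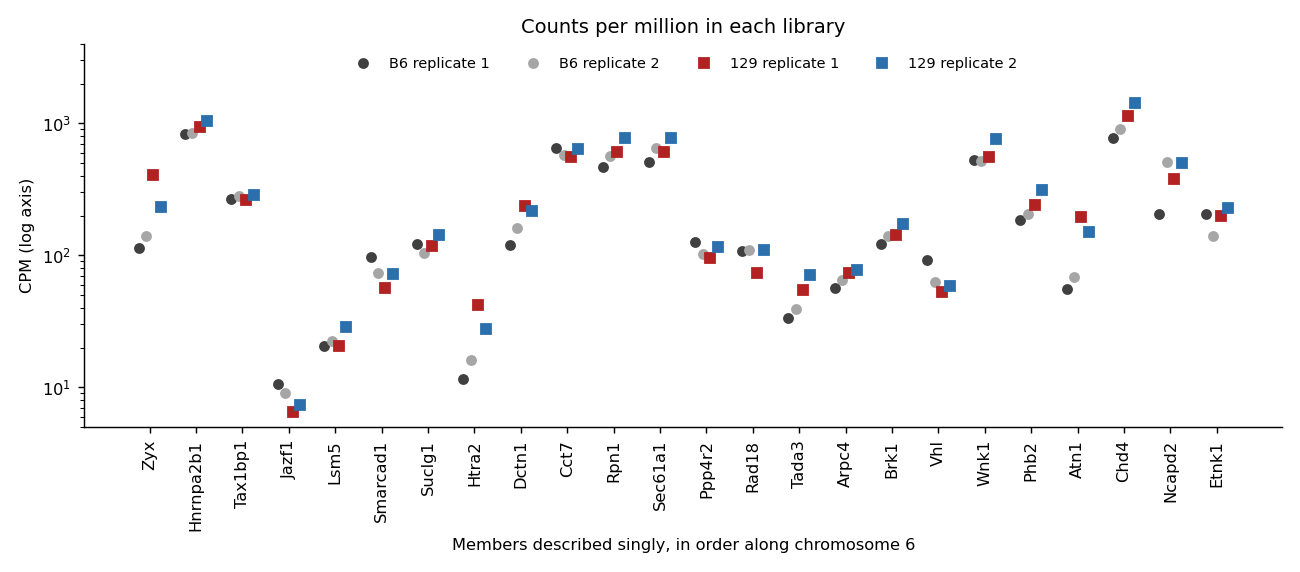
CPM on a log axis (y axis) of 24 members in each of the 4 libraries (x axis: members in order along chromosome 6). Circles are B6 and squares 129. For 12 of the 24 both squares lie above both circles, furthest for Zyx, Htra2 and Atn1, and for 3 (Vhl, Smarcad1 and Jazf1) both lie below. Over all genes of at least 10 CPM the shares were 28.4% and 31.9%. Some of the 24 were picked for their high or low ratios, so nothing is read from the counts.

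Among the 10 members of transcription and chromatin, Chd4, the remodeling ATPase of the NuRD complex (chr6:125095981-125130591), had the largest count. It stood at 775 and 908 CPM in B6 and at 1143 and 1439.7 CPM in 129 replicates 1 and 2. Its groups did not overlap, and 129 replicate 2 was the highest library (log2 fold change 0.62, SE 0.19, edgeR adjusted p = 0.098).

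Atn1, which encodes the corepressor atrophin 1 (chr6:124742544-124756524), was at 55.9 and 68.1 CPM in B6 and at 194 and 152 CPM in 129. It was well apart between the strains and, unlike most members, higher in 129 replicate 1 (log2 fold change 1.48, SE 0.22, edgeR adjusted p = 0.034). Without B6 replicate 1, B6 replicate 2 or 129 replicate 1 the call ended (edgeR adjusted p = 0.18, 0.10 and 0.18), as it did among genes of at least 10 CPM on average (0.052). Over its alternatives the fold change ranged from 1.30 to 1.65 and the adjusted p from 8.1e-06 by DESeq2 to 0.18. Tada3, an adaptor of histone acetyltransferase complexes, was at 33.3 and 39.2 CPM in B6 and at 55.0 and 71.1 CPM in 129, again with no overlap.

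The lowest ratios to B6 were in the same group. Smarcad1, a chromatin remodeler of the SNF2 family, stood at 97.9 and 73.4 CPM in B6 and at 57.0 and 72.1 CPM in 129, so that 129 replicate 2 came close to B6 replicate 2. Jazf1, a zinc finger gene with few counts here, was at 10.5 and 9.06 CPM in B6 and at 6.52 and 7.30 CPM in 129. Nrf1, a transcription factor of genes for mitochondrial proteins, was also lower in both 129 libraries, at log2 ratios of -0.27 and -0.05. The group's ratios in 129 replicate 2 ran from -0.42 to 1.29, with 6 of 10 above 0, and 8 of 10 were lower in 129 replicate 1 than in replicate 2. Setd5, a SET domain gene of chromatin regulation, had the lowest ratio of all members between the 129 libraries (-0.62): it was at 486 and 483 CPM in B6, and at 392 and 604 CPM in 129, below and above both B6 libraries. Foxp1, a forkhead transcription factor, Ing4, a reader of histone methylation, and Etv6, an ETS family repressor, lay within 0.24 of 0 in both 129 libraries.

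All 9 mitochondrial members were above the B6 mean in 129 replicate 2, with a median of 0.52, and 8 of 9 were in 129 replicate 1, with a median of 0.29. Phb2, a subunit of the prohibitin ring of the inner membrane (chr6:124712336-124716950), was at 187 and 206 CPM in B6 and at 241 and 314 CPM in 129. Htra2, a protease of the intermembrane space (chr6:83051266-83055273), was at 11.5 and 16.1 CPM in B6 and at 42.2 and 27.6 CPM in 129, where replicate 1 was the higher. Its exons overlap those of Loxl3 and Aup1 transcribed the opposite way, and no source used here tells if strand was used in counting.

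Suclg1, a subunit of succinate-CoA ligase in the citric acid cycle, overlapped between the strains, at 121 and 104 CPM in B6 and at 118 and 143 CPM in 129. Dguok, a kinase that supplies nucleotides for mitochondrial DNA (0.76 and 0.92 in 129 replicates 1 and 2), Hibadh, a dehydrogenase of valine breakdown (0.52 and 0.65), Nfu1, a carrier of iron-sulfur clusters (0.45 and 0.52), and Mrpl51 of the mitochondrial ribosome (0.25 and 0.45) were higher than both B6 libraries in both 129 libraries. Ssbp1, which binds single-stranded mitochondrial DNA, was at -0.25 and 0.25, and Mrps33, also of the mitochondrial ribosome and with few counts, at 0.19 and 0.031. The 9 genes also differed between the B6 libraries, where 7 of 9 were lower in replicate 1 (median -0.24).

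The 7 members of RNA processing all had ratios above 0 in 129 replicate 2 (0.014 to 0.43), and 5 of 7 had ratios below 0 in 129 replicate 1. Hnrnpa2b1, an abundant RNA-binding protein gene (chr6:51460932-51469894), was at 832 and 843 CPM in B6 and at 933 and 1048 CPM in 129, without overlap. Lsm5, a subunit of the LSM rings that bind U6 RNA and decaying mRNA, was at 20.6 and 22.4 CPM in B6 and at 20.7 and 28.9 CPM in 129, where only replicate 2 lay above B6. The same order held for Emg1 and Nop2, enzymes that modify ribosomal RNA, with ratios of -0.15 and 0.26 and of -0.12 and 0.27 in 129 replicates 1 and 2. The splicing genes Luc7l2 and Tra2a were at 0.18 and 0.17 in 129 replicate 2, and Strap, an SMN complex gene, at 0.014.

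The 5 genes of DNA repair and chromosome structure were all lower in 129 replicate 1 than in replicate 2, by log2 ratios of -0.59 to -0.29. So were 43 of the 56 members and 66.7% of the other chromosome 6 genes of at least 10 CPM. All 5 were also above the B6 mean in replicate 2 (0.0098 to 0.59), as were 48 of the 56 members. Since the rule used these ratios, nothing is read from the counts. Rad18, a ubiquitin ligase of DNA damage tolerance, was at 107 and 109 CPM in B6 and at 73.7 and 111 CPM in 129, so that replicate 1 alone stood apart. Ppp4r2, a regulatory subunit of protein phosphatase 4, was at 127 and 103 CPM in B6 and at 94.8 and 116 CPM in 129. Ncapd2, a condensin I subunit (chr6:125168007-125191701), was at 207 and 511 CPM in B6 and at 381 and 499 CPM in 129, and its B6 libraries were further apart than those of strain 129. Rad52 and Rad51ap1, genes of recombination repair, had ratios of 0.52 and 0.59 in 129 replicate 2 and of 0.14 and 0.081 in 129 replicate 1.

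Of the 7 genes of protein making, folding and turnover, 5 were above the B6 mean in 129 replicate 2. Sec61a1, the channel subunit of the Sec61 translocon (chr6:88503579-88518905), was at 515 and 651 CPM in B6 and at 605 and 775 CPM in 129. Rpn1, a subunit of the oligosaccharyltransferase that glycosylates new proteins, was at 464 and 569 CPM in B6 and at 611 and 773 CPM in 129. In both, 129 replicate 2 was the highest library, and Rpn1's groups did not overlap while those of Sec61a1 did.

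Cct7, a subunit of the CCT chaperonin, was at 652 and 579 CPM in B6 and at 557 and 646 CPM in 129, with the groups intermixed. Vhl, the substrate receptor of a ubiquitin ligase for hypoxia-inducible factors, went the other way, at 92.2 and 63.2 CPM in B6 and at 53.0 and 58.6 CPM in 129. Usp5, a deubiquitinase (0.34 and 0.52), and Calu, a calcium-binding protein gene of the secretory pathway (0.30 and 0.18), were higher than both B6 libraries in both 129 libraries, and Ube2h, a ubiquitin-conjugating enzyme gene, was near 0 (-0.085 and -0.088).

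The 5 kinase and signalling members on chromosome 6 were mixed. Wnk1, a kinase that regulates ion transport (chr6:119923969-120038672), was at 531 and 522 CPM in B6 and at 561 and 762 CPM in 129, with replicate 2 well above the other 3 libraries. Braf, a kinase of the ERK pathway, was at -0.41 and 0.068 in 129 replicates 1 and 2, and Mob1a, a Hippo pathway cofactor, at -0.39 and -0.22. Hipk2, a stress-responsive kinase, was at 1.01 and 0.32, and its B6 libraries also lay apart (log2 ratio -0.98). Aak1, a kinase of endocytosis, was at 0.18 and 0.014. Cdk6, the listed gene of chromosome 5, was at 64.9 and 26.1 CPM in B6 and at 23.5 and 16.5 CPM in 129: it was lower in both 129 libraries and higher in 129 replicate 1 than in replicate 2.

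Among the 9 cytoskeleton and transport members, 8 were above the B6 mean in 129 replicate 2. Zyx, a focal adhesion gene (chr6:42349630-42360213), was at 114 and 141 CPM in B6 and at 406 and 232 CPM in 129. It had the highest ratio of all members in 129 replicate 1 (1.67) and between the 129 libraries (0.81). Its log2 fold change was 1.32 (SE 0.29, edgeR adjusted p = 0.057). The fibroblast markers had a median log2 ratio of 1.31 between the 129 libraries. Their sum was above both B6 libraries (8067 and 5518 CPM) in 129 replicate 1 (10484.5 CPM), as Zyx was. In 129 replicate 2 (4038 CPM) it was below both, where Zyx was above both. The part of such cells in Zyx was not tested. Dctn1, the large subunit of the motor adaptor dynactin, was at 119.9 and 163 CPM in B6 and at 235 and 218 CPM in 129, without overlap.

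Arpc4, of the actin-nucleating Arp2/3 complex, was at 56.5 and 64.8 CPM in B6 and at 73.6 and 77.0 CPM in 129, and Brk1, of the WAVE complex that activates it, at 122 and 139 CPM in B6 and at 142 and 172 CPM in 129. Both had no overlap between the strains, and Brk1's lower 129 value lay only just above B6. Tax1bp1, an autophagy receptor gene with the largest count of this group, was level, at 266 and 282 CPM in B6 and at 265 and 286 CPM in 129. Mkln1 (0.043 and 0.33 in 129 replicates 1 and 2), the nuclear import receptor gene Tnpo3 (-0.19 and 0.087), the sorting nexin gene Snx10 (-0.058 and 0.063) and Erc1 (-0.48 and -0.012), a scaffold of vesicle docking, were each higher in 129 replicate 2.

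In the last group, Etnk1, an ethanolamine kinase gene of phospholipid synthesis, was at 205 and 141 CPM in B6 and at 197 and 228 CPM in 129, so that the strains overlapped. Gfpt1, the entry enzyme of hexosamine synthesis, was at 0.52 and 0.35 in 129 replicates 1 and 2, and Bcat1, a cytosolic transaminase of branched-chain amino acids with few counts, at 0.91 and 0.76. Ccdc126 was at -0.035 and 0.00086.

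The head-to-head neighbours shown above were close in some ratios and apart in others. In 129 replicate 2, Tada3 stood at a log2 ratio of 0.97 to the B6 mean and Arpc4 at 0.34, Phb2 at 0.68 and Emg1 at 0.26, and Ncapd2 at 0.47 and Mrpl51 at 0.45. Between the 129 libraries the pairs had -0.37 and -0.064, -0.38 and -0.41, and -0.39 and -0.20. All 6 genes were lower in 129 replicate 1 than in replicate 2, as were 43 of the 56 members.

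Of the members, 13 belong to complexes whose other subunits were listed, and 69 of those partner genes lie on other chromosomes and were tested. Their median log2 ratio to the B6 mean was -0.19 in 129 replicate 1 and -0.10 in 129 replicate 2, where the 13 members had medians of 0.086 and 0.41. Between the 129 libraries the partners had a median of -0.015 and the 13 members one of -0.29. Of the 69 partners, 3 lie on chromosomes 15 or 16, and without those the partners' medians were -0.17, -0.097 and -0.015. EdgeR called 0 of the 69 partners (2.86% of all genes tested), with 15 at an unadjusted p under 0.05 (28.1% of all genes), while DESeq2 called 4 (15.3% of all genes) and limma-voom 0 (1.64%). In 129 replicate 2 the member stood above the median of its partners in 12 of 13 complexes, and Vhl was the exception. Between the 129 libraries it stood below that median in 13 of 13, by little in some. Phb2 was at -0.38 against -0.36 for its only partner, and Ncapd2 at -0.39 against a median of -0.35. Cct7 (-0.21) lay below 4 of its 7 partners, whose median was -0.12. Others lay further off, such as Rpn1 (-0.34 against 0.040), below all 6 of its partners. Suclg1, like Phb2, had 1 partner. The members were chosen on these ratios, and the complexes were listed with earlier results of these data known, so the contrast is a description. The 13 members also lay further out than all 56, whose medians were 0.32 in 129 replicate 2 and -0.19 between the 129 libraries.

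**Figure D5:**
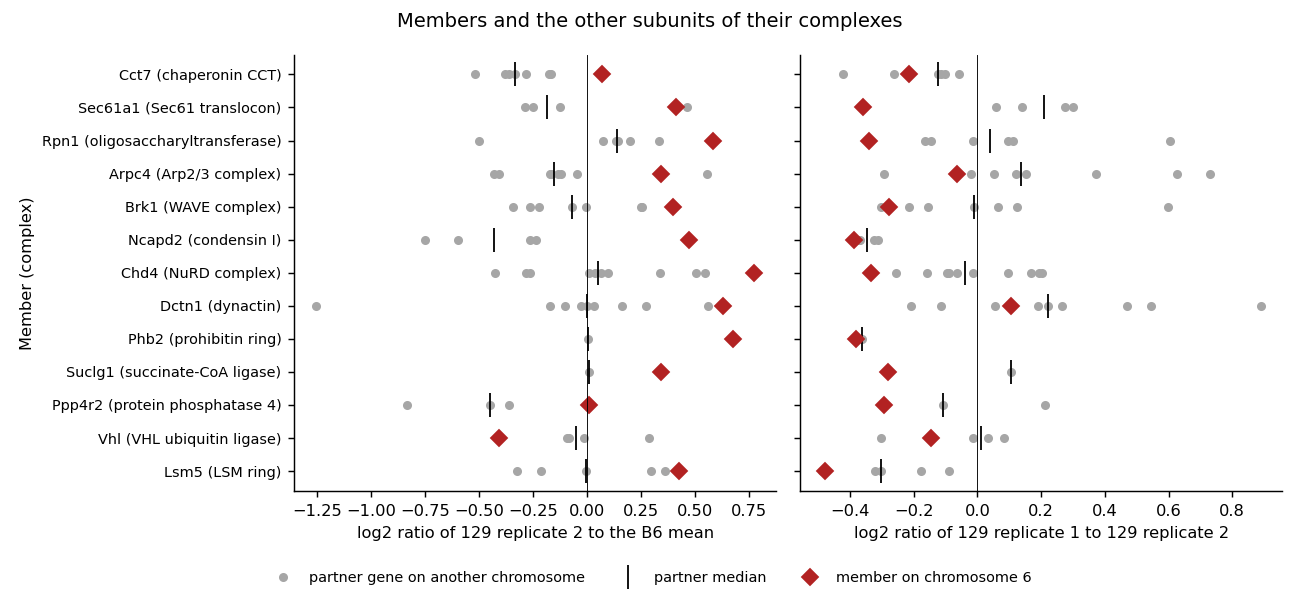
Log2 ratio of 129 replicate 2 to the B6 mean (left x axis) and of 129 replicate 1 to 129 replicate 2 (right x axis) for 13 members (diamonds) and the other subunits of their complexes encoded on other chromosomes (grey points, with the median as a black bar), 1 complex per line. On the left the diamond lies right of the bar in 12 of 13 complexes, and on the right it lies left of the bar in all 13.

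Against the B6 mean, the distance of a member to the median of its partners in 129 replicate 2 was largest in condensin I (0.90), but this rests on B6 replicate 1. Against B6 replicate 1 alone, a reference chosen after seeing the data, it was 1.80, and against B6 replicate 2 alone it was 0.29, below the 0.68 of Chd4. The distance of Phb2 also depended on the reference, at 0.17 and 1.01, as did that of Lsm5, at 0.19 and 0.63. Over both references, the member stood above the median in the same 12 complexes. Against the B6 mean, Ncapd2 was at 0.47 in 129 replicate 2 while its 4 partners Smc2, Smc4, Ncapg and Ncaph were at -0.75 to -0.24, although between the 129 libraries they were alike, at -0.39 for Ncapd2 and -0.37 to -0.31 for the partners. Chd4, at 0.77 in 129 replicate 2, lay above each of its 10 NuRD partners (-0.42 to 0.55), and at -0.33 between the 129 libraries it lay below each of them (-0.26 to 0.20). Cct7 was at 0.069 and its 7 CCT partners at -0.52 to -0.17. Sec61a1 was at 0.41 with 3 of its 4 partners below it, and between the 129 libraries it was at -0.36 and the partners at 0.060 to 0.30. The partner at 0.30, Sec61g, had very few counts (0.92 to 1.78 CPM). Rpn1 (0.58) lay above all 6 partners of the oligosaccharyltransferase (-0.50 to 0.33), and Phb2 (0.68) above its partner Phb (0.0051). Vhl, at -0.41, lay below its 4 partners, which ran from -0.092 to 0.29. The highest of them, Rbx1, lies on chromosome 15, whose genes also stood high in 129 replicate 2. In the other complexes, Dctn1 (0.63), Lsm5 (0.43), Brk1 (0.40), Suclg1 (0.34) and Ppp4r2 (0.0098) lay above all of their 9, 5, 7, 1 and 3 partners in 129 replicate 2, and Arpc4 (0.34) above 7 of 8, with Arpc1b at 0.56.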

How the data were processed

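The authors deposited 1 table of raw read counts per gene for 4 libraries, 2 per strain. The submitters' processing notes name the build mm10, the aligner HISAT2 2.2.1, the counter HTSeq 0.13.5, and also cutadapt 3.4, bcl2fastq 2.20 and DESeq2 1.30.1. They do not tell the strand setting or the annotation used.

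CPM were computed from the deposited counts with TMM-scaled library sizes in edgeR 4.0.16 (R 4.3.3), and log2 ratios from CPM without a pseudocount. The strains were compared with edgeR's quasi-likelihood test on genes kept by filterByExpr, with Benjamini-Hochberg adjustment over 16005 genes and a threshold of 0.05. DESeq2 1.42.0, limma-voom (limma 3.58.1), other scalings and filters, a replicate block and leaving out each library were the alternatives. The scripts were tested on simulated data. Chromosomes and exon overlaps came from GENCODE annotation of GRCm38, and promoter windows from RefSeq.

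The members, roles, complexes and marker lists were chosen with earlier results of these data known. Values in each library are given for the largest count in each role group, the 3 highest and 3 lowest ratios in each 129 library, members called by edgeR and members of listed complexes. Other members' values were chosen after being seen. With 2 libraries against 2, an exact permutation test cannot go below p = 0.333, so none was run.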

Additional observations from a re-analysis of the deposited data

How the results depend on the processing

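The members' median log2 ratio to the B6 mean stayed between 0.069 and 0.15 in 129 replicate 1 and between 0.23 and 0.40 in 129 replicate 2 under every alternative run. Between the 129 libraries it was -0.25 with library totals, -0.17 when centred on autosomes other than 6, 15 and 16, -0.17 for members that overlap no other gene and -0.21 for members of at least 10 CPM, a choice made after seeing the data; without overlapping members, 4 of 4 stretches that still held a member had a median below 0. Between the B6 libraries it was 0.0056 with DESeq2 size factors, 0.016 when centred and -0.035 for the other chromosome 6 genes. EdgeR called 1052 of 16005 genes (6.57%) and 2 of 56 members with library totals. With no filter beyond 1 count it called 260 of 23752 genes (1.09%) and 1 member. At 10 CPM or more it called 55 of 10258 genes (0.54%) and 0 members. There, 10 of 53 members had an unadjusted p under 0.05, where 26.4% of all genes tested did. DESeq2 called 2455 genes (15.3%) and 3 members, and limma-voom 263 genes (1.64%) and 1 member. Leaving out 1 library gave 0 to 827 genes and 0 to 2 members, with 3251 genes at an unadjusted p under 0.05 where 0 were called (without B6 replicate 1). The cause was not tested. Of 613 fold changes of members under alternatives, 579 lay within 1 SE of the value reported. The partners' median fold change stayed between -0.19 and -0.096.

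The replicate block gave 844 genes (5.27% of those tested) and 1 member called. The deviations of B6 replicate 1 and 129 replicate 1 from their strain means were not correlated (r = -0.022 over 16005 genes, which are not independent replicates). A correlation over genes cannot tell if same-numbered libraries shared a batch or preparation, and the labels do not say.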

Other observations

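Ncapd2 differed most between the B6 libraries among the members on the low side, at 207 and 511 CPM (log2 ratio -1.30), while its condensin partners Smc2, Smc4, Ncapg and Ncaph had ratios of 0.17 to 0.26 there. Phb, the partner of Phb2 in the prohibitin ring, also lay apart in B6 (-0.99), where Phb2 had -0.14.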
